A study of Mus musculus with 37 samples.

Results

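The Hox genes encode homeodomain transcription factors that sit in 4 chromosomal clusters and give cells their position along the head-to-tail axis. All genes whose symbol consists of Hox, a cluster letter from a to d and a paralog number were taken. This gave 39 genes of the 55401 listed in both tables of expression values, with 11 in the a cluster on chromosome 6, 10 in the b cluster on chromosome 11, 9 in the c cluster on chromosome 15 and 9 in the d cluster on chromosome 2. Every one of the 39 was found in GENCODE M21 under the same gene identifier and version, and the counts below cover 38 of them.

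In early mammalian embryos, Hox clusters are held silent by the Polycomb repressive complexes until the body axis forms, when genes at the anterior end of each cluster (low paralog numbers) are switched on before posterior ones. Polycomb complexes place ubiquitin on histone H2A and methyl groups on histone H3, and BAP1 is the enzyme that takes the H2A ubiquitin off again. Retinoic acid, Wnt and Fgf signals and the Cdx proteins are known inducers of Hox genes, and Pbx, Meis and Pknox proteins bind DNA together with Hox proteins.

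The question put by the study was what the loss of BAP1 from mouse oocytes does to gene expression there and in the resulting embryos. Controls were Bap1flox/flox, and knockout oocytes and eggs were Gdf9-iCre, Bap1flox/flox, with the Gdf9 promoter driving the recombinase in the oocyte. Embryos up to the 2-cell stage were from either kind of egg and B6 males, and those of embryonic day 6.5 from either kind of egg and PWK males, so that every knockout embryo lacked maternal BAP1 and had a wild-type paternal Bap1 allele. Ages of the animals and the number of oocytes or embryos per library are not stated in the labels.

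Total RNA was sequenced from oocytes at full size (FGO), eggs in the second meiotic metaphase (MII), and embryos at the late 1-cell (L1C), early 2-cell (E2C) and late 2-cell stage (L2C). E2C had 3 control and 3 knockout libraries, and the other stages had 2 and 3. Poly(A) libraries were made from epiblast (EPI) and visceral endoderm (VE) of embryonic day 6.5, with 2 control and 2 knockout libraries each, and from extraembryonic ectoderm (EXE), with 1 control and 2 knockout libraries. Values are FPKM, fragments per kilobase of transcript scaled to library size, and a gene is called detected in a library at 1 FPKM or more and a trace when it is listed above 0 but under 1 FPKM. The number of reads behind a value is unknown. The labels do not say whether the libraries of a group came from separate animals, so p-values measure only the spread between these libraries. In such bulk libraries, fewer cells of a type and less RNA per cell cannot be told apart.

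Bap1 itself averaged 22.8 FPKM in control and 4.41 FPKM in knockout FGO, and 22.7 against 10.5 FPKM in L2C, and it fell at each of the 5 early stages (limma, highest Benjamini-Hochberg adjusted p 0.00617). At embryonic day 6.5 its mean was higher in knockout than in control libraries of each lineage, with an adjusted p of 1 by limma. Between 10353 and 11942 genes were detected per total RNA library and between 10476 and 12459 per poly(A) library. The lineages carried their own markers, with a summed visceral endoderm list (Ttr, Afp, Apoa1, Amn and Cubn) of 6902 to 8103 FPKM in VE and of at most 14.0 FPKM in EPI and EXE.

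Hox transcripts were few. Of the 38 genes, 8 were detected in any library, 6 of them in total RNA and 4 in poly(A) libraries, with 2 in both. They were 3 genes of the a cluster, 3 of the b cluster, 2 of the d cluster and 0 of the c cluster. By paralog number, they were 1 anterior gene (1 to 4), 3 central genes (5 to 8) and 4 posterior genes (9 to 13). Of the 30 never detected, 14 reached 0.5 FPKM in at least 1 library, and Hoxc12 was listed at 0 in all of them. Mean levels of at least 1 FPKM in a group were reached by 7 genes: Hoxa3, Hoxa7, Hoxb9, Hoxd8 and Hoxd13 in total RNA, and Hoxa7, Hoxb7 and Hoxb13 in poly(A). Hoxa7, a central gene, was detected in every early library, while its neighbours Hoxa5, Hoxa6 and Hoxa9 stayed under 1 FPKM throughout.

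**Figure D1:**
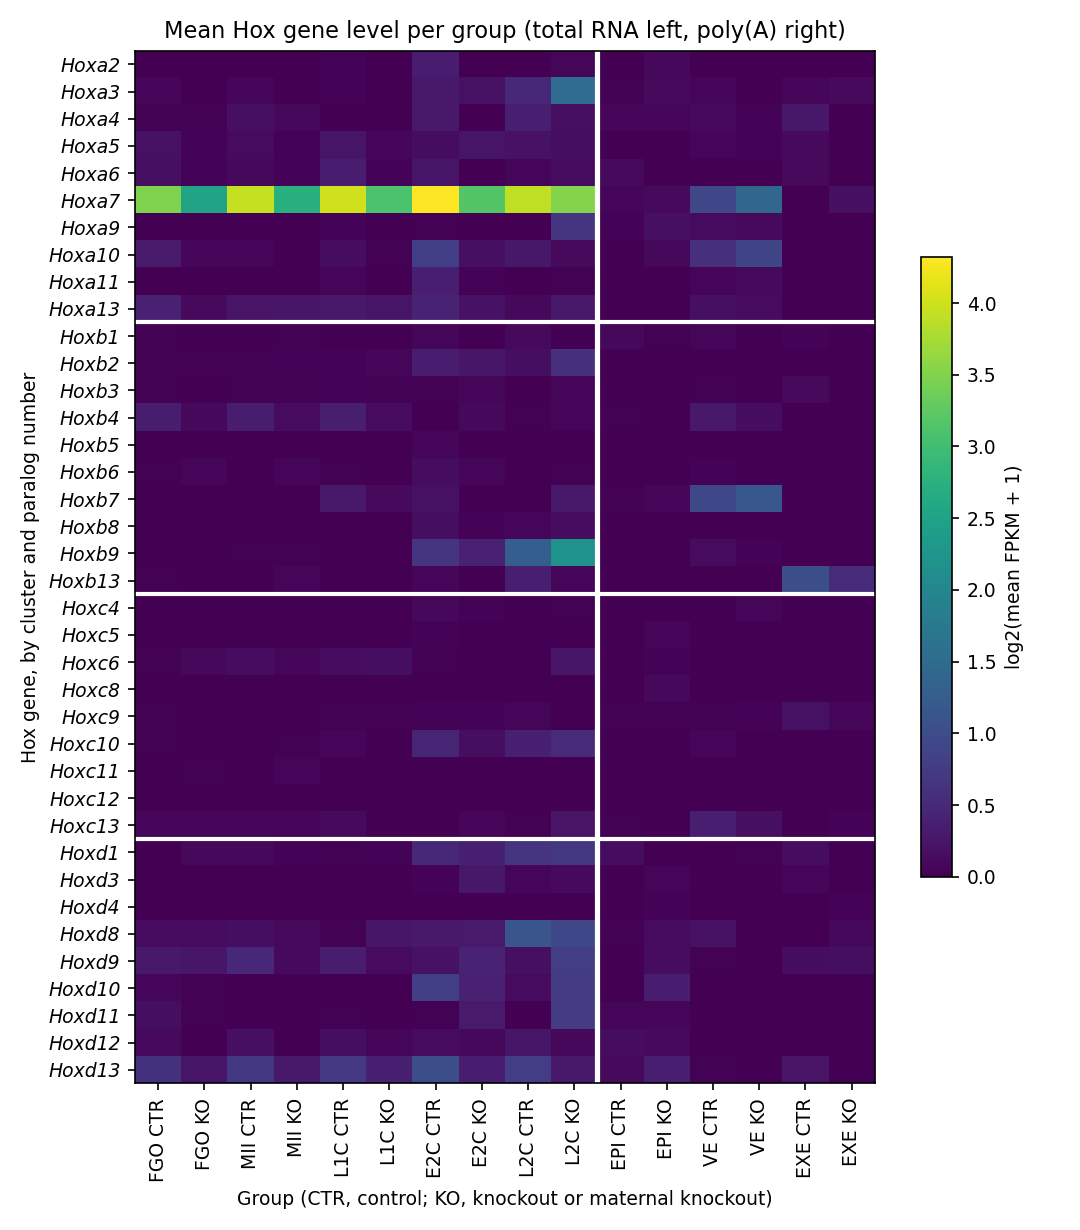
Mean level of each of the 38 Hox genes (rows, by cluster and paralog number) in each of the 16 groups (columns, control CTR and knockout KO), as log2(mean FPKM + 1). Hoxa7 is the one bright row across the total RNA stages, and Hoxa3 and Hoxb9 stand out in knockout L2C.

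Polycomb binding in mammals is typical of promoters rich in the dinucleotide CG, so the sequences before the start sites are of interest. RefSeq (GRCm38.p6) held 24 promoters of 22 Hox genes. In the 250 bases before the start, these had a median of 12.5 CG dinucleotides (the letters C then G, which read the same on both strands), against 6 over 32851 promoters of the same length, and 19 of the 24 lay above that median. Of the genes detected in early libraries, the stretches free of GENCODE exons are shown for Hoxa7, Hoxd13 and Hoxd8, 5′ to 3′ with each CG in capitals, as examples of a stretch rich in CG and of 2 near the median of all promoters. The Hox promoters ranged from 2 to 35 CG. That of Hoxa7 is 112 bases at chr6:52218712-52218823 on the minus strand, that of Hoxd13 is 250 bases at chr2:74667975-74668224 on the plus strand, and that of Hoxd8 is 250 bases at chr2:74704365-74704614 on the plus strand.
Hoxa7: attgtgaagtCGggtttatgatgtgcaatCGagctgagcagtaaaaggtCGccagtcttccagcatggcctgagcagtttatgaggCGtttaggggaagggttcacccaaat
Hoxd13: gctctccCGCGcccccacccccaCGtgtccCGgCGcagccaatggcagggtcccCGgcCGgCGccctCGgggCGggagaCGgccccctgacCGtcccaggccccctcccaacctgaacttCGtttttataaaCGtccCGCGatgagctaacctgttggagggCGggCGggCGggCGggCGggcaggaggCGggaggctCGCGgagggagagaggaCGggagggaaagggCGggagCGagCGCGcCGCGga
Hoxd8: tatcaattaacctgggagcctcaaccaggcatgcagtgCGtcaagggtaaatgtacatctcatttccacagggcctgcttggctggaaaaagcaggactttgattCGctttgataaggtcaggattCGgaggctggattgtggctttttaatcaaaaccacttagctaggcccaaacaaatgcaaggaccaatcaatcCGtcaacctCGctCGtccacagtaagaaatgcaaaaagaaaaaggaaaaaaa
The Hoxd13 stretch held 31 CG, more than 94.8% of all promoters. Hoxd8 held 6, more than 49.6% of all, and the whole 250 bases of Hoxa7 held 7, more than 53.7% of all. These windows precede the RefSeq starts, and the one of Hoxa7 lies inside the longer gene that GENCODE annotates, downstream of the GENCODE start. The counts describe these windows only.

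Hoxa7 (chr6:52214491-52221854, minus strand, GENCODE M21) had the highest value of the 38 genes in every total RNA library, and its level was lower without BAP1 at the 4 stages before L2C. It made up between 61.8% and 86.5% of the summed level of the 38 in all of these libraries but the 3 knockouts of L2C, where it made up 40.8%, 48.4% and 46.0%. In FGO it was at 10.4 and 9.94 FPKM in the controls and at 4.70, 4.55 and 5.04 FPKM in the knockouts. In MII it was at 14.5 and 14.2 FPKM in the controls and at 5.13, 6.18 and 5.80 FPKM in the knockouts. The groups did not overlap at either stage. On the log2(FPKM + 1) scale, Hoxa7 fell by 0.95 ± 0.10 in FGO (SE, 2 against 3 libraries, limma, Benjamini-Hochberg adjusted p = 0.00384) and by 1.20 ± 0.10 in MII (limma, adjusted p = 0.00116). It was the 1 Hox gene of the 38 that passed the filter on low values (2 or more of the libraries fitted at 1 FPKM or above) at these stages. Among all genes tested, 7.00% were lower in knockout FGO and 7.84% in knockout MII at the same threshold.

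In L1C, Hoxa7 was at 14.6 and 15.5 FPKM in the controls and at 7.92, 7.82 and 6.85 FPKM in the knockouts. In E2C it was at 22.7, 15.6 and 18.6 FPKM in the controls and at 7.85, 8.06 and 8.002 FPKM in the knockouts. Again the groups stood apart, with the controls of E2C spread far more widely than the knockouts. It fell by 0.91 ± 0.11 in L1C (limma, adjusted p = 0.00254) and by 1.14 ± 0.17 in E2C (limma, adjusted p = 0.00673), where 8.71% and 5.87% of all genes tested were lower. In L2C it was at 15.0 and 13.1 FPKM in the controls and at 9.06, 11.7 and 10.5 FPKM in the knockouts. The knockouts were all below the controls there too, but by less, and the difference of -0.40 ± 0.15 did not pass the test (limma, adjusted p = 0.0748).

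The ratio of the control to the knockout mean of Hoxa7 was 2.13 in FGO, 2.52 in MII, 2.00 in L1C, 2.38 in E2C and 1.35 in L2C. A test of the change in the knockout effect from E2C to L2C gave 0.74 ± 0.23 (limma, adjusted p = 0.0452), and the 3 tests between earlier consecutive stages gave adjusted p of 0.43 to 0.675 by limma. The call in FGO was lost when either control was left out (adjusted p 0.0727 and 0.079), which leaves 1 control library, and the call on the change from E2C to L2C was lost under 15 of 19 alternatives. Averaged over genotypes, Hoxa7 was higher in MII than in FGO by 0.34 ± 0.06 (limma, adjusted p = 0.00767, 5.46% of all genes higher) and in L1C than in MII by 0.20 ± 0.07 (limma, adjusted p = 0.0418, 14.0% of all genes higher), the last lost under 13 of 18 alternatives. Of the exonic words of 50 bases of Hoxa7, 18.7% also occur in the antisense gene Hoxaas3, and whether counting used the strand is not given in the sources used here. Hoxaas3 itself was listed at 0.036 FPKM or less in every total RNA library, and its part in the Hoxa7 values was not tested.

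**Figure D2:**
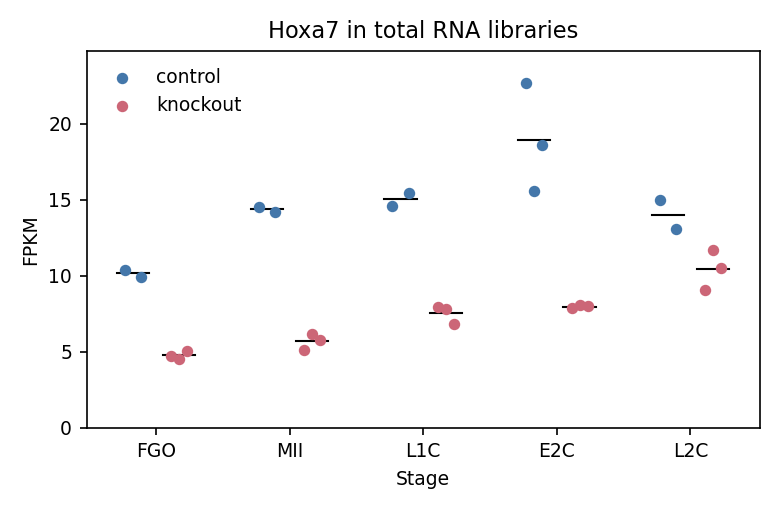
Hoxa7 level (FPKM, linear axis from 0) in each total RNA library by stage, with control libraries in blue, knockout libraries in red and a bar at each group mean. The knockout libraries lie below the controls at all 5 stages, and the gap is smallest in L2C.

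Hoxd13, the posterior end of the d cluster (chr2:74668310-74671599, plus strand), had the same order of groups as Hoxa7 at a level mostly under 1 FPKM. It was at 0.625 and 0.487 FPKM in control and at 0.280, 0.117 and 0.156 FPKM in knockout FGO. In MII it was at 0.475 and 0.784 FPKM in the controls and at 0.192, 0.256 and 0.245 FPKM in the knockouts. In L1C it was at 0.865 and 0.437 FPKM in the controls and at 0.245, 0.380 and 0.266 FPKM in the knockouts. The groups did not overlap at these 3 stages, and the gene did not pass the filter at any of them. In E2C it was at 1.18, 0.958 and 1.05 FPKM in the controls and at 0.257, 0.388 and 0.160 FPKM in the knockouts. It passed the filter there through the controls alone, and the difference of -0.70 ± 0.23 did not pass the test (limma, adjusted p = 0.0828). It did pass without the trend and in a fit of all 26 total RNA libraries. An earlier analysis of these data found that this shared fit made false calls in E2C, so nothing is read from the latter. In L2C the groups overlapped, with controls at 0.385 and 1.07 FPKM and knockouts at 0.115, 0.385 and 0.177 FPKM.

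The order of the groups was then counted over all Hox genes listed above 0, Hoxa7 and Hoxd13 included, most of which were traces. Of the 28 Hox genes listed above 0 in FGO, 9 (32.1%) had every knockout library below every control and 1 (3.57%) had every one above, where 19.2% and 12.8% of all genes listed above 0 did so. In MII these were 6 of 26 below (23.1%) and 0 above, where 18.9% and 14.0% of all genes did so. In L1C they were 8 of 25 below (32.0%) and 1 above (4.00%), against 16.5% and 14.6% of all genes. Hoxa7, Hoxa10, Hoxb4 and Hoxd13 were among those below at all 3 stages. Without Hoxa7 and Hoxd13, which were left out after their values were seen, 7 of 26 (26.9%) were below in FGO, 4 of 24 (16.7%) in MII and 6 of 23 (26.1%) in L1C, so that in MII the share was under that of all genes. In E2C the shares were 3 of 34 below (8.82%), which were Hoxa7, Hoxb7 and Hoxd13, and 0 above, against 10.3% and 8.99% of all genes. Most of these values were under 0.5 FPKM, and without read counts their counting error is unknown. The shares over all genes include genes at higher levels and are not matched to traces. The visceral endoderm markers, also traces here, summed to 0.420 to 0.467 FPKM in control and 0.075 to 0.169 FPKM in knockout FGO. In L1C these sums were 0.483 to 0.671 and 0.101 to 0.173 FPKM, while markers of trophoblast giant cells were at 0 at both stages. Summed markers of granulosa and cumulus cells, the somatic cells around the oocyte, were 1.10 to 1.59 FPKM in control and 0.378 to 1.10 FPKM in knockout FGO, and their part in the traces was not tested.

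All of the 38 Hox genes but Hoxa7 stayed under 1 FPKM until the 2-cell stage. Their summed level without Hoxa7 averaged 2.83 FPKM in control L1C (SD 0.503, n = 2) and 7.03 FPKM in control E2C (SD 1.35, n = 3), against 1.36 (SD 0.189, n = 3) and 3.59 FPKM (SD 1.19, n = 3) in the knockouts. In L2C the order of the genotypes was the opposite one, with 6.44 FPKM in controls (SD 0.576, n = 2) and 12.6 FPKM in knockouts (SD 0.435, n = 3). The lowest knockout library of L2C was at 12.3 FPKM and the highest control at 6.85 FPKM. A mean of at least 1 FPKM was reached by 3 Hox genes in control and 3 in knockout L2C. At the looser level of 0.5 FPKM these were 5 and 9, which was not counted over all genes.

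Hoxb9, a posterior gene of the b cluster (chr11:96271457-96276595, plus strand), was listed at 0 in all L1C libraries. In E2C it was at 0.700, 0.645 and 0.395 FPKM in the controls and at 0.512, 0.0493 and 0.405 FPKM in the knockouts, with the groups overlapping. In L2C it was at 1.72 and 1.17 FPKM in the controls and at 3.38, 3.34 and 4.28 FPKM in the knockouts, with no overlap. It rose by 0.93 ± 0.22 in knockout L2C (limma, adjusted p = 0.012), with a mean 2.53 times that of the controls. The change in the knockout effect from E2C was 1.20 ± 0.31 (limma, adjusted p = 0.0212). Without control replicate 2 of L2C neither the rise nor the change passed the test (limma, adjusted p 0.0779 and 0.107), and without knockout replicate 3 of L2C the change did not (limma, adjusted p = 0.0512). In all, the change was lost under 6 of 19 alternatives.

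Hoxa3, an anterior gene (chr6:52169062-52213336, minus strand), was at 0.569 and 0.233 FPKM in control and at 2.94, 1.36 and 1.25 FPKM in knockout L2C. All 3 knockouts were above both controls, and knockout replicate 1 was the highest by far. It rose by 0.99 ± 0.31 (limma, adjusted p = 0.0356), having passed the filter through the knockout libraries alone. The call was lost without control replicate 1, control replicate 2 or knockout replicate 1 (adjusted p 0.0868, 0.189 and 0.0549), and without knockout replicate 1 the difference was 0.73. It was also lost with the looser filter and with none (adjusted p 0.0575 and 0.156), which makes 5 of 13 alternatives. Of its exonic words of 50 bases, 24.3% occur in other annotated genes of the cluster. The change in its knockout effect from E2C was 1.07 ± 0.37 (limma, adjusted p = 0.0705).

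In L2C, then, 2 of the 4 Hox genes tested rose and 0 fell, where 19.0% of all genes tested were higher and 19.5% lower. Since Hoxa3 entered the test through the knockouts alone, nothing is read from this count. The other 2 were Hoxa7, given above, and Hoxd8, the lowest numbered gene of the d cluster to be detected (chr2:74704615-74707933, plus strand). Hoxd8 was at 0.948 and 1.44 FPKM in control and at 0.935, 1.13 and 0.694 FPKM in knockout L2C, with overlapping groups and a difference of -0.19 ± 0.24 (limma, adjusted p = 0.569). Hoxa3 and Hoxa7 lie in the same cluster.

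Below the filter, some of the 16 posterior genes, picked after their values were seen, were listed in knockout L2C and not, or hardly, in the controls. Hoxd11 was listed at 0 in both controls and at 0.921, 0.497 and 0.674 FPKM in the knockouts. Hoxa9 was listed at 0 in both controls and at 0.523, 0.916 and 0.261 FPKM in the knockouts. Hoxd10 was at 0 and 0.176 FPKM in the controls and at 0.769, 0.908 and 0.443 FPKM in the knockouts. Together with Hoxd9 and Hoxa13 these were 5 posterior genes whose knockout libraries all lay above the controls. With Hoxa3 and Hoxb9 they made 7 of the 32 Hox genes listed above 0 (21.9%), near the 19.1% of all genes listed above 0 that did so. The opposite order was found for 3 (9.38%), Hoxa7 and the posterior genes Hoxa10 and Hoxb13, against 18.8% of all genes. Hoxd10 had been listed in E2C controls at 0.659, 0.620 and 0.976 FPKM, so its trace in knockout L2C was no higher than in control E2C. Hoxa13 was at 0.30, 0.16 and 0.23 FPKM in knockout L2C and had been at 0.26 and 0.36 FPKM in control FGO.

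**Figure D3:**
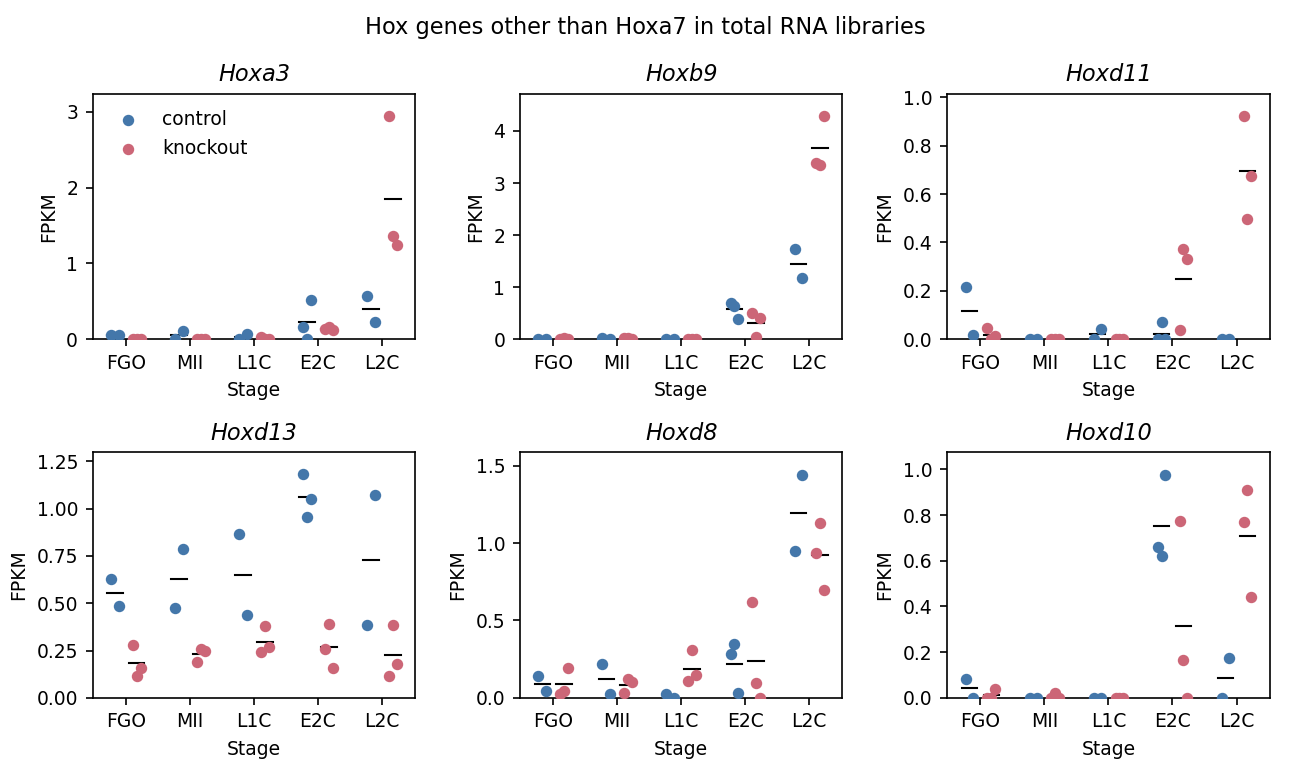
Levels (FPKM, linear axes from 0 that differ between panels) of 6 Hox genes in each total RNA library by stage, with controls in blue, knockouts in red and a bar at each group mean. Hoxa3, Hoxb9 and Hoxd11 have their highest libraries in knockout L2C, Hoxd10 has its highest in control E2C, and Hoxd13 is lower in the knockouts of the 4 stages before it.

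Averaged over genotypes, Hoxa3, Hoxb9 and Hoxd8 were higher in L2C than in E2C, which makes 3 of 5 Hox genes tested, where 36.8% of all genes tested were higher. No E2C library of these 3 genes reached 1 FPKM, so they passed the filter through L2C, where they were high, and nothing is read from the count. Hoxb9 gained 1.23 ± 0.16 (limma, adjusted p = 2.23e-05) and Hoxd8 0.75 ± 0.17 (limma, adjusted p = 0.00189). Hoxa3 gained 0.74 ± 0.19 (limma, adjusted p = 0.00397). Of the knockout effects, 2 of 5 were more positive in L2C than in E2C (Hoxa7 and Hoxb9) and 0 more negative, where 8.81% and 7.89% of all genes tested were. Hoxb9 was among those that entered through L2C alone, so nothing is read from this count either.

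Oocyte markers also differed between the genotypes at this stage. Summed markers of the oocyte (Zp3, Gdf9, Bmp15, Oosp1 and Figla, 5 of 5 listed at 1 FPKM or more) were 416 to 438 FPKM in control and 689 to 817 FPKM in knockout L2C, and 780 to 1118 against 752 to 937 FPKM in E2C. Of the 5, Zp3 had the opposite order in L2C, at 15.2 to 15.4 FPKM in controls and 9.21 to 13.4 FPKM in knockouts. Whether the Hox values of L2C follow from how far the embryos had developed was not tested.

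Of a list of 18 genes for Cdx proteins, retinoic acid and posterior signals, few were expressed at these stages. Not all of the 18 are inducers of Hox genes, since the list includes Crabp1, Crabp2 and Cyp26a1. In knockout FGO, MII and L1C, 4 of the 18 were tested at each stage, with 1 higher and 1 lower, where 1.34%, 4.17% and 6.22% of all genes were higher and 7.00%, 7.84% and 8.71% lower. The one that fell was Aldh1a2, which makes retinoic acid: it averaged 13.8 FPKM in control and 3.43 FPKM in knockout FGO (SD 0.31 and 0.372, n = 2 and 3) and fell by 1.74 ± 0.11 (limma, adjusted p = 0.00127). In MII it fell by 1.86 ± 0.10 (limma, adjusted p = 0.000316) and in E2C by 1.27 ± 0.21 (limma, adjusted p = 0.0107). The one that rose was Crabp2, which carries retinoic acid to its receptors, from a mean of 69.4 to 101 FPKM in FGO (limma, adjusted p = 0.0397). By L2C, Aldh1a2 was down to 0.581 FPKM in controls and 0.831 FPKM in knockouts. In L2C 2 of 7 genes tested were higher and 2 lower, beside 19.0% and 19.5% of all genes. Fgf8 was higher by 1.88 ± 0.27 (limma, adjusted p = 0.00144) and Fgf4 lower by 2.57 ± 0.29 (limma, adjusted p = 0.000517). The means of Fgf8 were 8.72 and 14.3 FPKM in control and knockout E2C and 2.39 and 11.5 FPKM in L2C, lower in L2C in both genotypes.

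Of 9 genes for Hox cofactors, 5 were tested in L2C, where Pbx2 rose by 0.81 ± 0.17 (limma, adjusted p = 0.00771) and Pknox1 fell by 1.18 ± 0.23 (limma, adjusted p = 0.00507). Among 47 other homeobox genes that are developmental regulators, 14 were tested in L2C, and 3 (21.4%) were higher and 0 lower in the knockouts. Of all genes tested, 19.0% were higher, near the share of the list, and 19.5% were lower. Gbx2, a regulator of the hindbrain, averaged 14.6 FPKM in controls and 35.0 FPKM in knockouts (SD 3.61 and 2.06, n = 2 and 3). It was higher in knockout L2C by 1.23 ± 0.16 (limma, adjusted p = 0.000837). Its means had been 75.2 and 65.5 FPKM in control and knockout FGO and 32.5 and 46.5 FPKM in E2C. Gbx2 was thus lower in L2C than in E2C in both genotypes. Lbx1, known from muscle and spinal cord, rose by 0.52 ± 0.10 (limma, adjusted p = 0.00479). Otx1, a head regulator, was lower in the knockouts at each of the 4 stages before L2C, from a mean of 6.71 to 1.11 FPKM in MII (limma, adjusted p = 0.00191), and was at 1.50 and 1.40 FPKM in control and knockout L2C. Other genes of the list went the other way. Emx2 was higher in knockout FGO, from a mean of 2.04 to 6.65 FPKM (limma, adjusted p = 0.00317). By the same test Lbx1 was higher in MII and L1C, and in E2C Gbx2 was higher and Lhx1 lower. Shares of the list were not set beside all genes at these stages, so nothing is read from these calls.

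Of 26 genes of the Polycomb and Trithorax groups, 21 were tested in L2C, with 8 (38.1%) higher and 4 (19.0%) lower, beside 19.0% and 19.5% of all genes. Phc1, a subunit of the ubiquitin ligase complex, was higher by 1.09 ± 0.13 (limma, adjusted p = 0.000576). Ezh2, the H3 methyltransferase, was higher by 0.82 ± 0.10 (limma, adjusted p = 0.000796). The means of Ezh2 were 204 and 206 FPKM in control and knockout E2C and 75.6 and 134 FPKM in L2C, lower in L2C in both genotypes. In FGO and MII the same list had 2 (9.52%) and 3 (14.3%) lower and 0 higher of 21 tested, Bap1 itself among those lower, beside 7.00% and 7.84% of all genes lower and 1.34% and 4.17% higher. Asxl3, which encodes a partner of BAP1, fell by 0.78 ± 0.13 in FGO (limma, adjusted p = 0.0174) and by 0.84 ± 0.13 in MII (limma, adjusted p = 0.0104).

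Of a list of 25 genes in or near the Hox clusters, nearly all non-coding, 20 were in the tables and at most 2 were tested at any stage. Halr1, a gene of the list outside the span of the a cluster genes described here, was at 2.23 and 3.10 FPKM in L2C controls. In the knockouts it was at 1.40, 0 and 0.326 FPKM. All 3 knockouts were below both controls, and it fell by 1.31 ± 0.37 (limma, adjusted p = 0.0254). At embryonic day 6.5, Hotairm1 was higher in EXE than in EPI by 2.80 ± 0.26 (limma, adjusted p = 8.92e-05). It was higher in EXE than in VE by 2.46 ± 0.26 (limma, adjusted p = 0.000113). Hotairm1 was listed at 0 in every EPI library and averaged under 1 FPKM in VE. It passed the filter mainly through EXE, where it was high, so nothing is read from these calls.

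At embryonic day 6.5, before most Hox genes of the body axis are switched on, the Hox genes with the highest values in VE differed from those in EXE. In EPI none was detected, and the summed Hox level averaged 0.726 FPKM in controls (SD 0.298, n = 2) and 1.67 FPKM in knockouts (SD 1.81, n = 2). The highest single value there was that of Hoxd10 in knockout replicate 1, at 0.502 FPKM. That library had 18 Hox genes listed above 0 and knockout replicate 2 had 4, so the knockout libraries differed more from each other than the group means did.

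Hoxa7 was highest in VE among the lineages, and of the 38 genes it had the highest value in 2 of the 4 VE libraries. It was at 0.271 and 1.52 FPKM in control and at 0.810 and 2.54 FPKM in knockout VE. In EPI it was at 0.0431 and 0.0541 FPKM in the controls and at 0.147 and 0 FPKM in the knockouts, and in EXE at 0 in the control and at 0.258 and 0 FPKM in the knockouts. All 4 VE libraries were above all others. Averaged over genotypes, Hoxa7 was lower in EPI than in VE, with a difference of -1.01 ± 0.28 (limma, adjusted p = 0.017), and differed by -1.01 ± 0.31 between EXE and VE (limma, adjusted p = 0.043). It was the 1 Hox gene of the 38 tested at this age and passed the filter through 2 VE libraries alone, so it could enter only by being high in VE. By the same tests 16.8% and 11.3% of all genes tested were lower in EPI and in EXE than in VE. Without control replicate 2 or knockout replicate 2 of VE the gene did not pass the filter, and without either knockout library of EXE the call between EXE and VE was lost (limma, adjusted p 0.0748 and 0.119). In all, the call between EXE and VE was lost under 6 of 12 alternatives.

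Hoxb7, the paralog of Hoxa7 in the b cluster (chr11:96286623-96290162, plus strand), was at 0.904 and 0.933 FPKM in control and at 0.684 and 1.81 FPKM in knockout VE. In the other lineages it was at most 0.109 FPKM. It was detected in 1 library and so was not tested. Hoxa10 reached 1.43 FPKM in knockout VE replicate 1, beside 0.300 FPKM in the other knockout and 0.723 and 0.258 FPKM in the controls. Hoxa10 is known from the decidua, the lining of the uterus. In that library the 5 markers of decidua summed to 24.3 FPKM, mostly Cryab at 21.6 FPKM, with Prl8a2 at 2.76 FPKM and Pgr and Hand2 at 0, against 1.38 to 3.77 FPKM in the other 3 VE libraries, and their part in the Hoxa10 value was not tested.

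Hoxb13, the posterior end of the b cluster (chr11:96194316-96197447, plus strand), was at 1.05 FPKM in control and at 0.778 and 0.0643 FPKM in knockout EXE and was listed at 0 in every EPI and VE library. It was detected in 1 library, the EXE control, and did not pass the filter. The EXE libraries carried their markers, with a summed list of 345 to 446 FPKM (Elf5, Cdx2, Esrrb, Bmp4 and Tfap2c) against at most 5.89 FPKM in EPI and VE. Cdx2, a known inducer of posterior Hox genes, was at 6.01 FPKM in the control and at 7.98 and 18.0 FPKM in the knockouts of EXE.

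**Figure D4:**
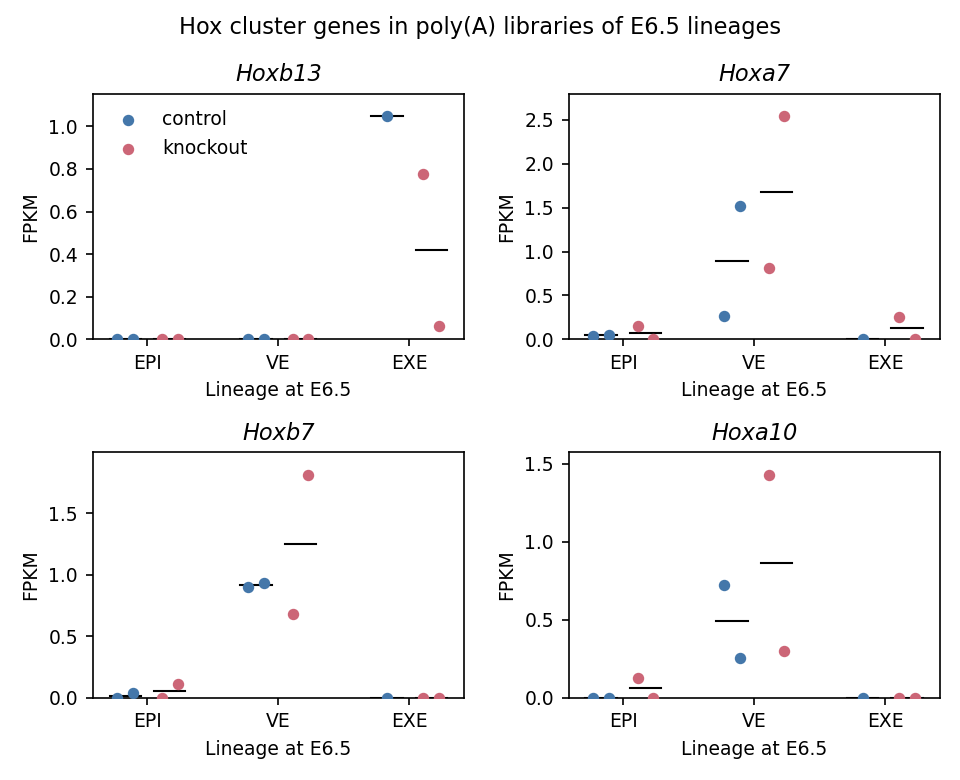
Levels (FPKM, linear axes from 0 that differ between panels) of 4 Hox genes in each poly(A) library by lineage, with controls in blue, knockouts in red and a bar at each group mean (EXE has 1 control). Hoxb13 is highest in EXE and Hoxa7, Hoxb7 and Hoxa10 in VE.

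Hoxa7, the 1 Hox gene of the 38 tested at embryonic day 6.5, was not called for maternal genotype in EPI, VE or EXE by limma, and its unadjusted p was under 0.05 in 0 of the 3. The background was as low, with 0% of all genes called in EPI, 0.00719% (1 gene) in VE and 0% in EXE, and 469, 248 and 251 genes at an unadjusted p under 0.05. Its differences were 0.03 ± 0.39 in EPI, 0.50 ± 0.39 in VE and 0.17 ± 0.48 in EXE. With 0 or 1 of all genes called per lineage, a missing call does not show that the levels were alike. The lone EXE control was assumed to vary like the other groups.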

How the data were processed

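Levels were analysed from the deposited tables, which hold FPKM per gene and library, 1 table for 26 total RNA and 1 for 11 poly(A) libraries. Per the submitters' processing notes the authors used Trim Galore 0.6.6, STAR 2.7.9, StringTie 2.1.7 and build mm10, and the annotation is not given in the sources used here. Per the labels the total RNA libraries were made with a stranded kit. The authors' column of control EPI replicate 1 was recorded as another unit (other), since 1 gene, Gm24888, has a value just below 0, which was set to 0. It holds FPKM like the other columns and was used as such. All columns were matched to samples, with 0 left over. FPKM keeps no read counts, so depth is unknown and the number of libraries limits the precision.

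Values were tested as log2(FPKM + 1), a scale that understates changes of low genes, using limma 3.58.1 (R 4.3.3, moderated statistics with a trend), for genes at 1 FPKM or more in 2 or more of the libraries fitted, with Benjamini-Hochberg adjustment over all genes tested and a threshold of 0.05. Each early stage was fitted alone, consecutive stages in pairs and the 11 poly(A) libraries together. The tables were scaled separately, so tests stay within a table. The scripts were tested on simulated libraries, with 100 genes changed by 1 and 100 by 2 on the log2 scale. Of these, 74 and 97 were recovered in FGO, 51 and 91 in E2C and 67 and 88 in L2C, with 17, 9 and 15 false calls. In VE 0 and 33 were recovered, with 0 false calls. The changed genes were picked above a minimum level, so these rates do not hold for traces. Tables and plots were made in Python 3.11.15 with pandas 2.3.3 and matplotlib 3.10.9.

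Of the 39 genes matching the symbol pattern, 1 is not reported here, nor is 1 gene of another list. Library values are given for those with a group mean of at least 1 FPKM or an adjusted p under 0.05, and of other lists at most 3 genes per contrast with the smallest adjusted p. The traces given for Hoxa9, Hoxa10, Hoxa13, Hoxd10 and Hoxd11, and Cdx2 and the values of Aldh1a2 and Otx1 in L2C, were chosen after their values were seen. So were the sums of visceral endoderm and trophoblast giant cell markers at early stages, the level of Hoxaas3, and the levels of Fgf8, Pbx2, Gbx2 and Ezh2 before L2C. Members, lists and tests were chosen with earlier results of these data known. Replicate numbers are not said by the labels to pair samples. No pairing was used in the main fits. In E2C, the one stage with 3 pairs, the deviations of same-numbered libraries correlated at 0.056, 0.047 and -0.092. At the other early stages the values ran from -0.038 to 0.167. In EPI and VE, same-numbered control and knockout libraries correlated at 0.611 and 0.457. Between lineages, EPI and EXE knockouts correlated at 0.551 and EPI and VE controls at -0.32. The main tests at embryonic day 6.5 do not model this, and a replicate block was run as an alternative. Gene positions are from GENCODE M21 (GRCm38), promoters from RefSeq (GRCm38.p6). H3K27me3 and other chromatin data were not analysed here.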

Additional observations from a re-analysis of the deposited data

Results flagged for a closer look

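The knockout effect differed between E2C and L2C for 2 of the 5 Hox genes tested, by the test of the difference itself (limma, Benjamini-Hochberg adjustment over 14051 genes). Of all genes tested, 8.81% had a more positive and 7.89% a more negative effect in L2C. Hoxb9 passed the filter through L2C alone, so nothing is read from the count. For Hoxb9 the difference between the effects was 1.20 (adjusted p = 0.0212), with overlapping groups in E2C and all 3 knockouts above both controls in L2C, and the call was lost under 6 of 19 alternatives (adjusted p up to 0.107). For Hoxa7 it was 0.74 (adjusted p = 0.0452), with all 3 knockouts below the controls at both stages and the smaller gap in L2C, and the call was lost under 15 of 19 alternatives (adjusted p up to 0.169). No cause was tested.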

How the results depend on the processing

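Each count of Hox genes called was recomputed under every alternative. The counts below show how far the calls depend on the setting. They are not set beside the share of all genes called in each setting, so nothing is read from them about Hox genes. No call changed direction. With no filter on low values the counts became 2 for knockout against control in MII (Hoxa7 and Hoxd12) and 1 in EXE (Hoxb3), 6 for EPI against VE, 2 for EXE against EPI, 5 for EXE against VE, 0 for L1C against MII, 3 for E2C against L1C, 5 for L2C against E2C, and, for differences of the knockout effect, 1 between EXE and EPI (Hoxd13) and 0 between L2C and E2C. With the looser filter of 0.1 FPKM they were 5 for EPI against VE, 1 for EXE against EPI, 2 for EXE against VE, 0 for L1C against MII, 3 for E2C against L1C, 5 for L2C against E2C and 1 for the effect in L2C against E2C. After TPM scaling, which also raises low values above the filter, they were 4 for knockout against control in L2C (adding Hoxd10 and Hoxd11), 3 for EPI against VE, 1 for EXE against EPI, 3 for EXE against VE, 0 for L1C against MII, 2 for E2C against L1C and 0 for the effect in L2C against E2C. TPM scaling moved the median of all genes in L2C by 0.13 (log2) and the calls among all genes from 2417 higher and 2476 lower to 2981 and 1937. Quantile normalization gave 1 for E2C against L1C (Hoxa7). A pseudocount of 0.1 gave 0 for the effect in L2C against E2C. Without the trend, E2C had 2 (Hoxa7 and Hoxd13), EXE against VE 0 and the effect in L2C against E2C 1. One fit of 26 libraries, found earlier to make false calls in E2C, gave 2 in E2C, 4 in L2C (adding Hoxa7 and Hoxd13), 0 for L1C against MII and 1 for E2C against L1C. The call of Hoxb3 in EXE with no filter rests on a trace of 0.0851 FPKM in the 1 control, against 0 in the knockouts. The cause of these changes was not tested.

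A replicate block, for numbers that the labels do not pair, gave 0 in FGO (Hoxa7, adjusted p = 0.0615 by limma), 1 in L2C (Hoxa3, without Hoxb9), 0 for MII against FGO, 0 for L1C against MII, 0 for EXE against VE and 0 for the effect in L2C against E2C. The crossed block, with VE numbers exchanged and chosen after seeing the data, gave 1 for EPI against VE and 1 for EXE against VE.

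Leaving out 1 library at a time gave counts of 0 to 1 in FGO, 0 to 2 in L2C, 0 to 1 for EPI against VE, 0 to 1 for EXE against VE, 0 to 1 for L1C against MII, 0 to 1 for E2C against L1C, 2 to 3 for L2C against E2C and 0 to 2 for the effect in L2C against E2C, and the main count for every other comparison. The EXE control could not be left out, being the only one. Some differences that were not called changed sign or went to 0 when 1 library was left out. Hoxa7 in EPI ranged from -0.0685 to 0.1298 and Hoxa7 in EXE from 0 to 0.3315.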
